A study of Mus musculus with 12 samples.

Results

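The 2 single lesions of a mouse model of myeloid leukaemia genes, named Smc3 and Npm1 in the labels, were set against each other in hematopoietic stem and progenitor cells (HSPCs), the bone marrow fraction that renews and feeds all blood lineages. Each lesion had been compared with WT in its own deposited table, and the log2 fold change of Npm1 against WT was subtracted from that of Smc3 against WT, so that the shared WT libraries cancel to the extent that both tables were normalized alike. A gene was a member if its mean of normalized counts reached 50 in both tables, with 1 transcript kept per symbol. This left 10718 of 24016 genes, of which 10696 had a p-value in both tables and were tested. Lrrc14b was the member closest to the limit, with means of 62.2 and 50.02 in the Smc3 and Npm1 tables, and Elovl7, at 80.3 and 49.998, was the closest gene outside it.

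All mice were C57BL/6, and all of them, WT included, received pIpC, a synthetic double-stranded RNA that induces interferon and is widely used to switch on an inducible Cre. Per the labels, dosing began at 4 to 6 weeks of age, 7 doses of pIpC at 1 mg/mL were given every other day, and marrow was taken 4 to 6 weeks after treatment. Red cells were lysed and cells bearing lineage antigens were depleted before RNA was made into unstranded poly(A) libraries. The series has 4 groups of 3 libraries, called WT, Smc3, Npm1 and Double, and the comparison uses 3 Smc3 libraries, 3 Npm1 libraries and, through the deposited fold changes, the 3 WT libraries. The Double libraries were left out of every order of libraries given below. The labels name no allele, promoter or Cre for either lesion, and they leave unsaid whether each library is another mouse, so the p-values measure only the spread between these libraries.

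Smc3 is a core subunit of cohesin, the ring that holds sister chromatids together and extrudes the chromatin loops that bring enhancers to promoters. Npm1 is an abundant nucleolar chaperone that takes part in ribosome assembly, and in acute myeloid leukaemia it is often mutated so that the protein is exported to the cytoplasm. Leukaemias with mutant Npm1 are known for high expression of HoxA and HoxB genes and of the cofactor Meis1, while reduced cohesin function is known for altered differentiation and self-renewal of blood progenitors.

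The deposited tables hold group comparisons, and whole-read counts of the single libraries were recovered from their means, which gave counts for 10294 of the 10718 members. Libraries are lettered a, b and c by falling depth within a group, since the recovered counts carry no replicate number, and values for 3 libraries are always given in that order. Depth, estimated by rescaling the size factors of the libraries and not a total of reads, ranged from 10.05 M to 52.0 M over the Smc3 and Npm1 libraries. The Y-linked gene Uty was read in Smc3 libraries a and b, at 1057 and 874 normalized counts, and was at 0 in Smc3 library c, at 0, 0 and 2.23 in Npm1 and at 0 in WT, so only Smc3 library c is matched in this respect to the Npm1 libraries. The progenitor receptor gene Kit had normalized counts of 9820, 10530 and 6960 in Smc3, 8533, 7521 and 8370 in Npm1 and 8782, 8760 and 7682 in WT, and these groups overlap. The T cell gene Cd3e was at low levels, between 5.43 and 56.2 normalized counts over the same 9 libraries. As in any bulk sample, fewer cells of a type and less RNA per cell cannot be told apart in what follows.

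Among the genes called higher in Smc3 than in Npm1 were 15 of 19 tested basophil and mast cell genes and 13 of 14 primary granule genes, and among those called lower were the 3 tested HoxA genes and 28 of 38 ribosome biogenesis genes. A normal z test on the difference of the deposited DESeq2 fold changes, Benjamini-Hochberg adjusted over 10696 genes, called 2902 genes, or 27.1% of those tested, at an adjusted p under 0.05. Of these, 1428 (13.4%) were higher in Smc3 and 1474 (13.8%) were lower in Smc3, and in the text below "called" means past this threshold. The gains in Smc3 were the larger in size, since 405 genes were called with a log2 difference of 1 or more and 43 with a difference of -1 or less. The median difference over all tested genes was -0.08 with a median standard error of 0.18, and with the differences centred on that median the calls split into 1723 higher (16.1%) and 719 lower (6.72%). Both tables share the WT libraries, and the deposited fold changes are moderated towards 0. Their differences can therefore understate or otherwise misstate changes of weakly expressed or variable genes. For Egr3, given below, even the sign differed from that of the direct comparison of counts.

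**Figure D1:**
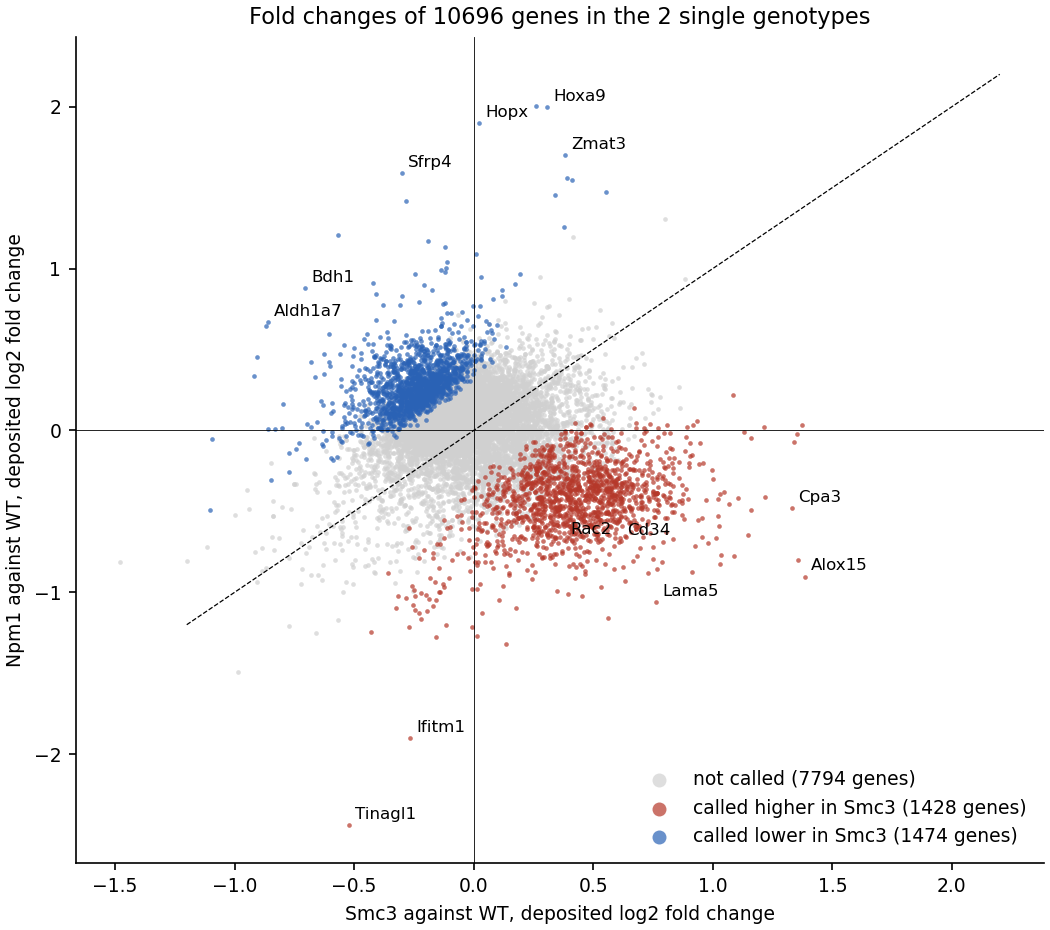
Each point is 1 of 10696 genes, placed by its deposited log2 fold change of Smc3 against WT (horizontal) and of Npm1 against WT (vertical), with genes called higher in Smc3 in red, genes called lower in blue and the dashed line marking equal change. The 1428 genes called higher lie below the line, towards Cpa3 and Alox15, and the 1474 called lower lie above it, towards Hoxa9 and Hopx.

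The recovered counts of single libraries describe how far these calls separate. The calls rest on the same libraries, so called genes are bound to separate more often than others. Neither this nor the direct comparison below is an independent check. Among the called genes with counts, all 3 Smc3 libraries lay above all 3 Npm1 libraries for 1336 of 1390 genes called higher (96.1%), where this held for 21.4% of all members with counts. All 3 Smc3 libraries lay below all 3 Npm1 libraries for 1342 of 1372 genes called lower (97.8%), against 30.4% of all members with counts. Smc3 library c, which has no Uty reads, lay above all Npm1 libraries for 1385 of the 1390 and below them for 1366 of the 1372, where the shares over all members were 35.1% and 46.4%. A direct comparison of the 3 Smc3 with the 3 Npm1 libraries by limma-voom, without WT, called 1770 of 10294 genes higher (17.2%) and 2111 lower (20.5%), and it called 2719 of the 2762 called genes with counts in the same direction. Its counts depended on which Npm1 libraries were included, since it called 120 genes higher (1.17%) and 40 lower (0.389%) without Npm1 library a, and 804 (7.81%) and 496 (4.82%) without Npm1 library b. With Smc3 library c alone against the 3 Npm1 libraries it called 1628 higher (15.8%) and 1119 lower (10.9%), the lone library being assumed to vary like the others. Of 113 called genes that have counts and were chosen by the rule for named genes, 34 were called in the same direction without Npm1 library a, at adjusted p-values from 0.0425 to 0.0484, among them Rac2, Hoxa5, Hoxa7, Hoxa9, Hopx, Aldh1a7, Fads3, Cpa3, Hdc, Csf2rb, Ms4a3, Cebpa and Ifitm1. Against Smc3 library c alone the called genes of that rule that were not called were Sfrp4, Pak6, Cacna1e, Psip1, Suz12, Pds5a, Esco2, Gata2, Itga2b, Cd37, Pdgfrb, Zfp36l1, Egr3, Smurf1, Gadd45a, Heatr1, Bbc3 and Bcl2l2.

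The genes that give the groups their names did not mark them at the RNA level in one way. Smc3, on chromosome 19, had normalized counts of 10420, 8946 and 10750 in Smc3, 11850, 12050 and 9852 in Npm1 and 10510, 11150 and 9082 in WT. These ranges overlap, and its log2 difference was -0.16 ± 0.16 (adjusted p = 0.479). Npm1 transcript was lower in Smc3 than in Npm1, with a log2 difference of -0.49 ± 0.19 (adjusted p = 0.0468), and its counts per library were not recovered. This call was lost after centring, with no minimum mean and with the moderation of the fold changes undone. In the authors' deposited table Npm1 stood at -0.26 ± 0.11 in Smc3 against WT and at 0.22 ± 0.16 in Npm1 against WT, neither past their threshold, at adjusted p = 0.0805 and adjusted p = 0.323. The labels do not say what either lesion does to its transcript, so these values check no label.

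The HoxA cluster, whose homeodomain factors sustain stem and progenitor cells and are switched off as they mature, stood higher in the Npm1 libraries than in the Smc3 and WT libraries. All 3 cluster genes among the members, Hoxa5, Hoxa7 and Hoxa9 on chromosome 6, were called lower in Smc3. Hoxa9, the cluster member most tied to myeloid leukaemia, had normalized counts of 472, 673 and 649.9 in Smc3, 1951, 2078 and 2168 in Npm1 and 452, 419.9 and 548 in WT. Every Npm1 library lay above every Smc3 and WT library, and the means were 598 ± 109.8 in Smc3 against 2065 ± 109 in Npm1 (SD, n = 3 libraries). The Npm1 mean was 3.45-fold that of Smc3, and the log2 difference was -1.69 ± 0.20 (adjusted p = 4.39e-13).

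Hoxa5 had counts of 77, 101 and 109 in Smc3, 409.8, 335 and 449.5 in Npm1 and 72.3, 72.6 and 82.6 in WT, and its log2 difference was -1.74 ± 0.27 (adjusted p = 5.79e-08). Hoxa7 had counts of 172, 196 and 183 in Smc3, 406, 444 and 463 in Npm1 and 129.5, 137 and 159 in WT, with a log2 difference of -1.11 ± 0.23 (adjusted p = 5.63e-05). For both genes the 3 Npm1 libraries lay above the 6 others with no overlap. The HoxA genes remained called without Npm1 library a, at adjusted p = 0.0425 for Hoxa9, 0.0468 for Hoxa5 and 0.0468 for Hoxa7 by limma-voom, and in the comparison of Smc3 library c alone with the 3 Npm1 libraries, at adjusted p = 0.0137, 0.0189 and 0.0189. Hoxa10 did not reach the mean of 50 in the Smc3 table and was not tested.

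Meis1, the cofactor that binds DNA with Hoxa9, had counts of 625.5, 919.9 and 813 in Smc3, 607, 548 and 725.5 in Npm1 and 669, 609 and 745 in WT, overlapping between the groups, and a log2 difference of 0.30 ± 0.21 (adjusted p = 0.277). Of 6 tested genes of the list of Hox cofactors 1 was called higher and 0 lower. Of 26 genes of the Menin, MLL and Polycomb complexes, which set and read the histone marks of the Hox clusters, 2 were called higher and 2 lower. Cbx2, a chromobox reader of Polycomb complex 1, was among the former, higher in Smc3 by 0.69 ± 0.21, and Psip1, which tethers MLL complexes to chromatin, and Suz12, a core subunit of Polycomb complex 2, were lower, at -0.51 ± 0.14 and -0.36 ± 0.14, the latter not after centring. The list as a whole had a median difference of -0.05, and its share of called genes was below the 27.1% of all tested genes.

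Other genes stood high in the Npm1 libraries beside the HoxA cluster. Hopx, an atypical homeodomain protein that binds no DNA itself, had counts of 92.1, 58.5 and 129 in Smc3, 516, 709.5 and 356 in Npm1 and 89.6, 77.3 and 109 in WT. Sfrp4, a secreted antagonist of Wnt ligands, had counts of 219, 178 and 43.9 in Smc3, 1107, 1574 and 534 in Npm1 and 217, 183 and 249.9 in WT. In both genes all 3 Npm1 libraries lay above all Smc3 and WT libraries, while Smc3 and WT overlapped, and the log2 differences were -1.88 ± 0.31 (adjusted p = 3.21e-07) and -1.89 ± 0.33 (adjusted p = 1.95e-06). Sfrp4 was not past the threshold against Smc3 library c alone, at adjusted p = 0.0676.

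Pak6, a p21-activated kinase, and Ugt8a, which makes galactosylceramide, were lower in Smc3, at -1.78 ± 0.33 and -1.70 ± 0.29 on the log2 scale. Pak6 had counts of 77.9, 71.4 and 31.5 in Smc3, 414, 668 and 236 in Npm1 and 113, 78.9 and 156.5 in WT. Ugt8a had counts of 55.1, 65.4 and 46.1 in Smc3, 240.2, 306 and 211 in Npm1 and 79.9, 78.9 and 58.7 in WT. In each the Npm1 libraries stood above all Smc3 and WT libraries, and Pak6 was not called against Smc3 library c alone. Akap2, an anchor of protein kinase A, and Cacna1e, a voltage-gated calcium channel subunit, were lower in Smc3, at -1.36 ± 0.30 and -1.33 ± 0.27, the latter not against Smc3 library c alone. Zmat3, an RNA-binding p53 target with no counts per library, was lower in Smc3, at -1.32 ± 0.28 (adjusted p = 0.000108). Its deposited fold changes against WT were 0.38 ± 0.23 in Smc3 and 1.70 ± 0.16 in Npm1. Both are moderated, and without counts the size of the difference could not be set against single libraries.

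A further set of genes moved away from WT on both sides, low in Smc3 and high in Npm1. Aldh1a7, an aldehyde dehydrogenase, had counts of 636, 793 and 625 in Smc3, 2551, 1639 and 2506 in Npm1 and 1358, 1451 and 1156 in WT. Fads3, a fatty acid desaturase family member, had counts of 367, 674 and 500.4 in Smc3, 1706, 1646 and 1642 in Npm1 and 1126, 1036 and 989 in WT. For these genes the 3 Smc3 libraries lay below WT and the 3 Npm1 libraries lay above WT, without overlap. Their log2 differences were -1.53 ± 0.21 (adjusted p = 2.81e-10) and -1.51 ± 0.20 (adjusted p = 1.35e-10), with Npm1 means 3.26-fold and 3.24-fold the Smc3 means.

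Bdh1, a mitochondrial enzyme of ketone body metabolism, had counts of 320.5, 377 and 232 in Smc3, 1159, 1577 and 783 in Npm1 and 506, 526 and 637 in WT. Gls2, a mitochondrial glutaminase, had counts of 147, 138.5 and 102 in Smc3, 418, 425 and 312 in Npm1 and 286, 281 and 249.9 in WT. Both genes stood in the same order, Smc3 below WT and WT below Npm1 in every library, with log2 differences of -1.59 ± 0.26 (adjusted p = 2.33e-07) and -1.36 ± 0.23 (adjusted p = 1.09e-06). Prelid2 and Gdpd1, a glycerophosphodiester phosphodiesterase, were lower in Smc3, at -1.25 ± 0.21 and -1.25 ± 0.23, and the Npm1 libraries of each again lay above those of Smc3. Neither was clear of WT on both sides. Gdpd1 had counts of 308, 250 and 166 in Smc3 and 283, 295 and 235 in WT, which overlap. Prelid2 was at 443 in Npm1 library c, within its WT values of 453, 426 and 374.

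Among the larger gains of Smc3 over Npm1 were genes of basophils and mast cells, the granulocytes that carry the high-affinity IgE receptor and release histamine and proteases. Of 19 tested genes of this list, 15 were called higher in Smc3 and 0 lower, with a median log2 difference of 1.495 beside -0.08 over all tested genes. The summed normalized count of the 17 listed genes with counts was 55650, 42910 and 44970 in Smc3, 27300, 24440 and 27840 in Npm1 and 31040, 31470 and 30600 in WT. Each Smc3 library exceeded each WT and Npm1 library, and the Npm1 libraries lay below the WT libraries. The tryptase genes Tpsab1 and Tpsb2, markers of mature mast cells, were at 0 in the Npm1 libraries and at most 2.58 in Smc3, and they are not members.

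Gata2, a zinc finger factor of mast cells, basophils and stem cells, was itself called, and its part in the other differences was not tested. The proximal promoters of 3 basophil and mast cell genes are shown. The genes were picked among called genes that hold the GATA motif, so the motif is there by selection. The promoters are printed for their letters only. They are RefSeq sequences of mouse build GRCm38.p6, the 250 bases before the annotated start, read 5′ to 3′ on the gene's strand, at chr16:44943428-44943677 on the plus strand for Cd200r3, chr3:20242182-20242431 on the minus strand for Cpa3 and chr1:173227230-173227479 on the minus strand for Fcer1a. Capitals mark the GATA motif, AGATAA or TGATAA on either strand.
Cd200r3: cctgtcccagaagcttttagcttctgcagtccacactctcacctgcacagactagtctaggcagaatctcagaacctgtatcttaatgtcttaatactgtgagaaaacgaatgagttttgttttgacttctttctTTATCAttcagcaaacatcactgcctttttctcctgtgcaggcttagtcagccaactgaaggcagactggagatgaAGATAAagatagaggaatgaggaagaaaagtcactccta
Cpa3: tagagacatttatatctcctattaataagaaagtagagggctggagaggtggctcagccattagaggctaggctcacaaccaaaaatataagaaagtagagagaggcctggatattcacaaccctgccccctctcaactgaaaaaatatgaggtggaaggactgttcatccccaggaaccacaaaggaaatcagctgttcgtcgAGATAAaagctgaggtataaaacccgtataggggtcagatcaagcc
Fcer1a: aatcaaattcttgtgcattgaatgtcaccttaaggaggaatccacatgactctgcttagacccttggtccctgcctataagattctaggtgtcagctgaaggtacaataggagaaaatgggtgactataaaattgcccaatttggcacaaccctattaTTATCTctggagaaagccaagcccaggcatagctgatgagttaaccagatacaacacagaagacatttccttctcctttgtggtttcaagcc
The motif stood in 8 of 16 basophil and mast cell promoters of the table (50%), in 9.07% of the 8196 members with a promoter and in 17% of all 27025 promoters, which describes the letters of these windows and no binding. Its match nearest the start began 39, 46 and 92 bases upstream in Cd200r3, Cpa3 and Fcer1a.

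Cpa3, the carboxypeptidase of mast cell granules, on chromosome 3, had counts of 5328, 3126 and 3260 in Smc3, 932, 609.6 and 1144 in Npm1 and 1315, 1459 and 1232 in WT. Its 3 Smc3 libraries lay above WT and its 3 Npm1 libraries lay below WT, and the means were 3905 ± 1235 in Smc3 against 895 ± 269 in Npm1 (SD, n = 3 libraries). The ratio of the means was 4.36-fold, and the log2 difference was 1.81 ± 0.25 (adjusted p = 2.81e-10). In the authors' deposited table Cpa3 was at 1.33 ± 0.17 in Smc3 against WT and at -0.48 ± 0.17 in Npm1 against WT.

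Alox15, a lipoxygenase of eosinophils and mast cells, had the largest difference of all called genes that the naming rule admits. Its counts were 1175, 605 and 456.5 in Smc3, 52.3, 41.3 and 125 in Npm1 and 221, 194 and 174 in WT, and every Smc3 library stood above every other library. The log2 difference was 2.29 ± 0.32 (adjusted p = 9.29e-10). Cd200r3, an activating receptor of mast cells and basophils, had counts of 1089, 434 and 369 in Smc3, 62.9, 63 and 100.1 in Npm1 and 150, 155 and 150 in WT and a log2 difference of 2.16 ± 0.31 (adjusted p = 1.88e-09). In both genes Smc3 library a was the highest of all libraries, above the other Smc3 libraries by a wide margin.

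Hdc, the enzyme that makes histamine, and Fcer1a, the IgE-binding chain of the high-affinity receptor, followed the same order. Hdc had counts of 2367, 1811 and 2966 in Smc3, 587, 380.3 and 846 in Npm1 and 1063, 1009 and 1354 in WT. Fcer1a had counts of 1383, 667 and 1266 in Smc3, 271, 176 and 343 in Npm1 and 439, 486 and 506 in WT. The groups did not overlap, and the log2 differences were 1.64 ± 0.26 (adjusted p = 1.13e-07) and 1.67 ± 0.27 (adjusted p = 2.56e-07). Mcpt8, a basophil protease without counts per library, was higher in Smc3 by 1.79 ± 0.31 (adjusted p = 1.60e-06). Gata2 itself had counts of 7096, 5902 and 4775 in Smc3, 4109, 3605 and 3665 in Npm1 and 4491, 4216 and 4283 in WT, with all Smc3 libraries above all Npm1 libraries, and its log2 difference was 0.60 ± 0.16 (adjusted p = 0.00318). Against Smc3 library c alone it was at 0.33 with adjusted p = 0.1. Without Npm1 library a, 6 of the 17 listed genes with counts were called by limma-voom, and against Smc3 library c alone 12 were.

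**Figure D2:**
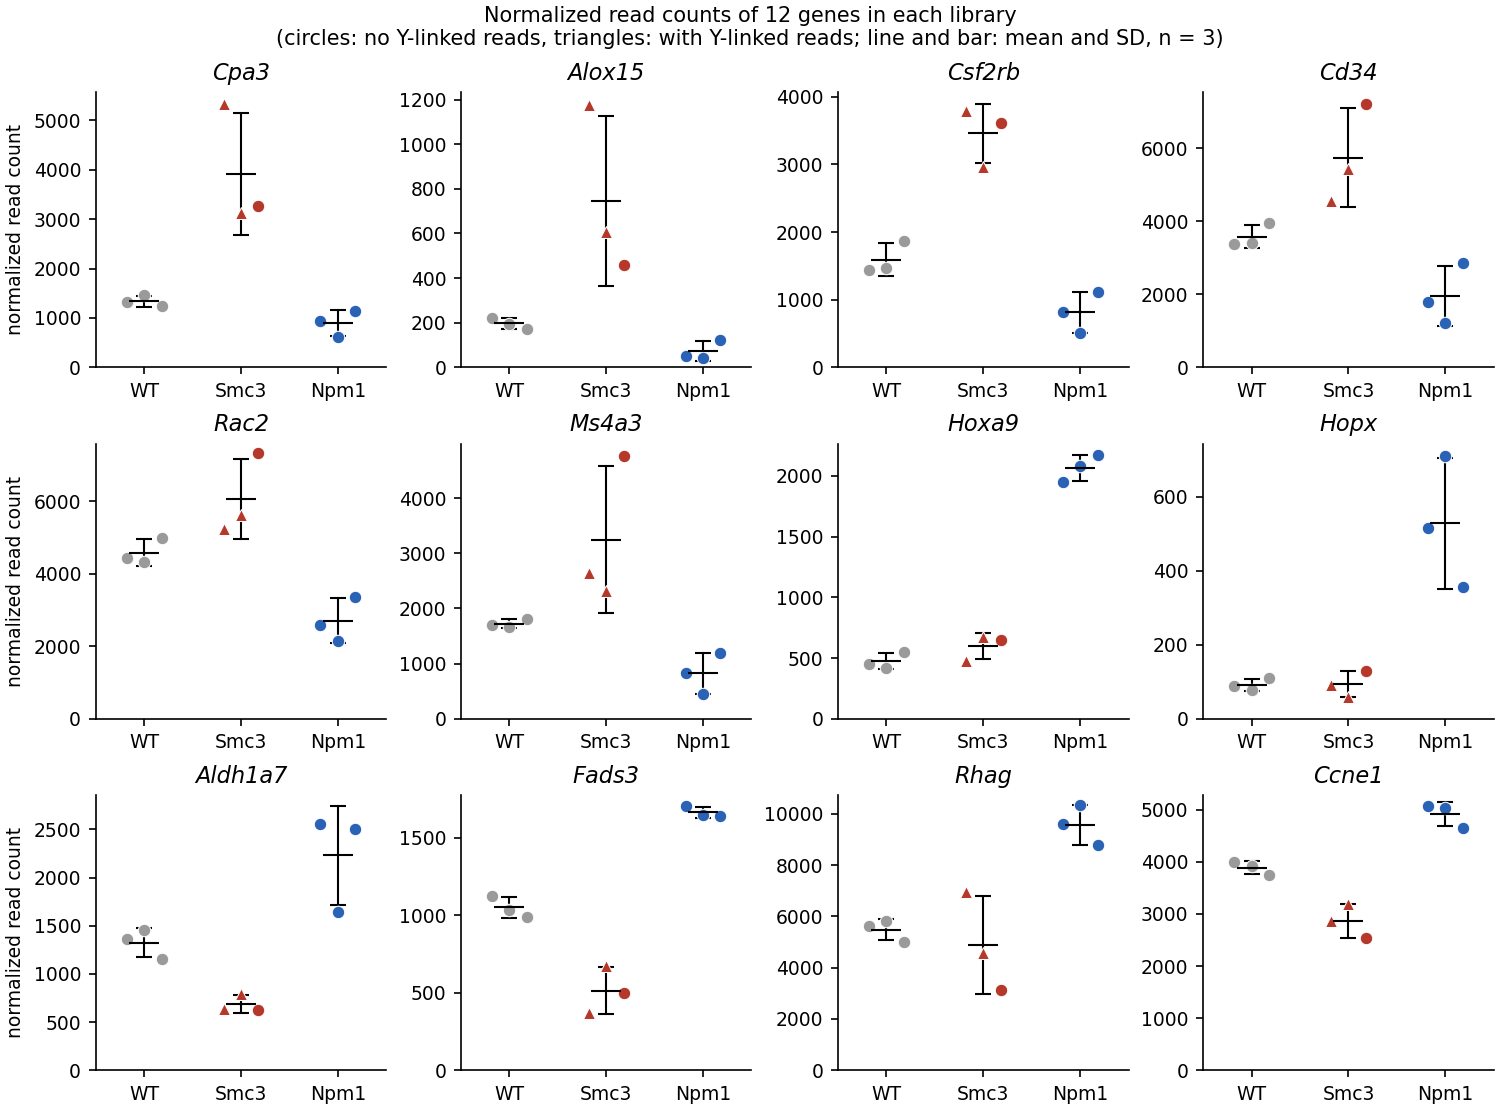
Normalized read counts (vertical axes, linear and starting at 0) of 12 genes are shown for each WT, Smc3 and Npm1 library, with the mean and SD of 3 libraries, and triangles mark the 2 Smc3 libraries with Y-linked reads. Cpa3, Alox15 and Csf2rb are high in the Smc3 libraries, and Hoxa9 and Hopx are high in the Npm1 libraries.

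Receptors through which progenitors sense cytokines were also higher in Smc3. Of 28 tested cytokine receptor genes, 18 were called higher and 0 lower, with a median log2 difference of 0.71. Csf2rb, the common beta chain of the receptors for GM-CSF and several interleukins, on chromosome 15, had counts of 3794, 2968 and 3616 in Smc3, 815, 511 and 1108 in Npm1 and 1438, 1468 and 1873 in WT. Each Smc3 library lay above WT and each Npm1 library lay below WT, the means were 3459 ± 435 in Smc3 against 811 ± 299 in Npm1 (SD, n = 3 libraries), and the log2 difference was 1.80 ± 0.24 (adjusted p = 1.35e-10). Csf2rb2, its near-identical paralogue, whose reads the counting could split, had counts of 1507, 881 and 1176 in Smc3, 313, 224 and 467 in Npm1 and 385, 412 and 674 in WT and a log2 difference of 1.42 ± 0.29 (adjusted p = 6.64e-05).

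Both chains of the interleukin-18 receptor were called in the same list. Il18rap had counts of 2240, 1133 and 992 in Smc3, 324, 215 and 441 in Npm1 and 440.4, 478 and 602 in WT and a log2 difference of 1.65 ± 0.29 (adjusted p = 2.23e-06). Il18r1 had counts of 518, 311.5 and 332 in Smc3, 126.5, 53.2 and 133.5 in Npm1 and 153, 151.5 and 187 in WT and a log2 difference of 1.45 ± 0.30 (adjusted p = 7.37e-05). The Smc3 libraries of both genes lay above all WT and Npm1 libraries. Fewer of these receptor genes, 2 of 24 with counts, were called by limma-voom without Npm1 library a, while the list's median log2 difference was 1.01 without it and 1.02 with it.

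The title of the series names DOCK1 and RAC2. Dock1 is an exchange factor that, bound to an Elmo protein, loads Rac with GTP, and Rac2 is the Rac GTPase of blood cells, which drives migration, adhesion and the oxidative burst. Of 30 tested genes of the list of DOCK and ELMO proteins, Rac GTPases, their regulators and effectors, 17 were called higher in Smc3 and 1 lower, with a median log2 difference of 0.46. Rac2, on chromosome 15, had counts of 5234, 5628 and 7326 in Smc3, 2593, 2148 and 3367 in Npm1 and 4438, 4319 and 5001 in WT. Its Smc3 libraries lay above WT, its Npm1 libraries lay below WT, and the log2 difference was 1.06 ± 0.20 (adjusted p = 1.05e-05). Dock1, on chromosome 7, had counts of 296, 412 and 604 in Smc3, 158, 116 and 263 in Npm1 and 303, 283 and 378 in WT, with all Smc3 libraries above all Npm1 libraries and WT overlapping Smc3.

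The log2 difference of Dock1 was 0.98 ± 0.29 (adjusted p = 0.00691). By limma-voom Dock1 was called with all libraries, at 1.30 with adjusted p = 0.0216. It was not called without Npm1 library a (1.30, adjusted p = 0.102) or without Npm1 library b (1.07, adjusted p = 0.0813). In the authors' deposited table Dock1 stood at 0.36 ± 0.20 in Smc3 against WT, with adjusted p = 0.223, and at -0.63 ± 0.21 in Npm1 against WT, with adjusted p = 0.0251. Arhgdib, which keeps Rac GTPases soluble, had counts of 7441, 7083 and 11990 in Smc3, 3510, 3410 and 4355 in Npm1 and 5459, 5426 and 6294 in WT. Arhgef6, an exchange factor on the X chromosome, and Vav1, the exchange factor of blood cells, rose over Npm1 by 1.19 ± 0.26 (adjusted p = 0.000171) and 0.83 ± 0.18 (adjusted p = 0.000112). Vav1 had counts of 3370, 3573 and 4621 in Smc3, 1865, 1893 and 2455 in Npm1 and 2905, 2813 and 3099 in WT, with no overlap between Smc3 and Npm1. The single gene called lower was the adaptor Crkl, at -0.31 ± 0.12, named here because it stood alone and chosen after its values were seen, and it was not called after centring. Without Npm1 library a limma-voom called 1 gene of the list, which was Rac2 at adjusted p = 0.0471, and against Smc3 library c alone it called 17.

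The NADPH oxidase, the enzyme that makes superoxide and is switched on by Rac2 in phagocytes, had 3 of 5 tested subunit genes called higher and 0 lower. Ncf1, its organizer subunit, had counts of 3072, 2822 and 4142 in Smc3, 1017, 846 and 1829 in Npm1 and 1829, 1700 and 2643 in WT and a log2 difference of 1.17 ± 0.27 (adjusted p = 0.000384). Cyba, the smaller membrane subunit, was higher by 0.72 ± 0.19. Smc3 libraries lay above Npm1 libraries for Ncf1 and Cyba. All 3 subunit genes with counts were called by limma-voom, and 0 of them without Npm1 library a, at a median log2 difference of 1.30 and 1.28.

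Of 24 tested adhesion molecules of leukocytes 12 were called higher in Smc3 and 0 lower, with differences from -0.38 to 1.21 and a median of 0.68. Limma-voom called 13 of the 21 with counts higher, and 2 without Npm1 library a. Itgav, an integrin alpha chain, had counts of 473, 483 and 558 in Smc3, 226, 216 and 222.5 in Npm1 and 300, 289 and 335 in WT and a log2 difference of 1.07 ± 0.20 (adjusted p = 6.68e-06). Itgal, the alpha chain of the lymphocyte function antigen, had counts of 3331, 3437 and 4628 in Smc3, 1545, 1125 and 2328 in Npm1 and 2421, 2395 and 3045 in WT and a log2 difference of 1.02 ± 0.24 (adjusted p = 0.000524). Neither gene overlapped between Smc3 and Npm1, and Smc3 also lay above WT in both. Pecam1, an adhesion receptor of endothelium and early blood cells, and Itgb3, the beta chain of platelet integrins, were higher by 1.13 ± 0.24 and 0.99 ± 0.23. Cdh1, or E-cadherin, had counts of 1574, 875 and 516 in Smc3, 182, 128 and 291.5 in Npm1 and 373, 336 and 391 in WT and a log2 difference of 1.68 ± 0.30 (adjusted p = 4.95e-06), with Smc3 library a far above library c.

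Granulocyte and monocyte genes were shifted towards Smc3. Of 14 tested genes of primary granules and their regulators, which are switched on in promyelocytes, 13 were called higher and 0 lower, with a median log2 difference of 1.09. The 9 of them with counts summed to 14280, 14260 and 23280 in Smc3, 5503, 3768 and 8991 in Npm1 and 10260, 10020 and 12950 in WT. The Smc3 libraries lay above WT and the Npm1 libraries lay below WT, and Smc3 library c was the highest of all. Ms4a3, a membrane protein of granulocyte and monocyte progenitors, had counts of 2646, 2317 and 4765 in Smc3, 830.3, 444 and 1197 in Npm1 and 1696, 1667 and 1812 in WT and a log2 difference of 1.54 ± 0.28 (adjusted p = 5.74e-06). Cebpa, the transcription factor that opens the granulocyte and monocyte path, had counts of 3040, 2855 and 3379 in Smc3, 808, 495.5 and 1389 in Npm1 and 1941, 1680 and 2345 in WT and a log2 difference of 1.21 ± 0.27 (adjusted p = 0.00032).

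Ctsg, the granule protease cathepsin G, was higher by 1.34 ± 0.28 (adjusted p = 0.000111), without counts per library. Igsf6, an immunoglobulin family membrane protein of myeloid cells, had counts of 1509, 1466 and 2931 in Smc3, 587, 464 and 979 in Npm1 and 1030, 1042 and 1297 in WT. Its groups did not overlap, and its log2 difference was 1.23 ± 0.28 (adjusted p = 0.000348). The factor PU.1, encoded by Spi1, binds motifs around GAGGAA in myeloid promoters. Spi1 was also called higher in Smc3, by 0.85 ± 0.31 (chosen after its values were seen), and its part in these differences was not tested. The promoters of Igsf6 and Ctsg were picked among called genes of the list that hold the letters GAGGAA, so these letters are there by selection. They lie at chr7:121074531-121074780 on the minus strand and chr14:56102575-56102824 on the minus strand, from RefSeq on GRCm38.p6 as above, with the letters GAGGAA on either strand in capitals.
Igsf6: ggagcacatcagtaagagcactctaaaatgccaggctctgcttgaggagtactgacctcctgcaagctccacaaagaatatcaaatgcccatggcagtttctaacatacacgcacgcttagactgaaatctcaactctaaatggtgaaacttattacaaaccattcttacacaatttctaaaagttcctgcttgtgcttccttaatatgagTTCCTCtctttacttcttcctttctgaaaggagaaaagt
Ctsg: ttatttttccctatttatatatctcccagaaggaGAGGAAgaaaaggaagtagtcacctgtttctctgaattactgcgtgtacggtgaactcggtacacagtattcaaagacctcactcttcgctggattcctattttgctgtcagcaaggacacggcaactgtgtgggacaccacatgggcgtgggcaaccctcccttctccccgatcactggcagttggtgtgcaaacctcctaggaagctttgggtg
These letters stood in 7 of 12 promoters of the primary granule list (58.3%), in 22.4% of members and in 23.1% of all promoters. In Igsf6 the match began 39 bases and in Ctsg 216 bases before the start. Without Npm1 library a, 2 of the 9 primary granule genes with counts were called by limma-voom, and without Npm1 library b 7 were, while all 9 were called against Smc3 library c alone.

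Genes of later neutrophil granules could not be compared in the same way. Of 15 members of this list 12 had no p-value in a deposited table, and the only gene called was Cxcr2, a chemokine receptor of mature neutrophils. Cxcr2 had counts of 376, 380.4 and 339.6 in Smc3, 91.2, 123 and 109 in Npm1 and 145, 158 and 352 in WT and a log2 difference of 1.19 ± 0.32 (adjusted p = 0.0024). WT library c stood far above the other WT libraries and reached the Smc3 range.

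Of 20 tested genes of monocytes and dendritic cells 8 were called higher and 0 lower, with a median log2 difference of 0.65. The 16 with counts summed to 20780, 23020 and 39150 in Smc3, 13010, 11050 and 19080 in Npm1 and 16330, 16550 and 20520 in WT. Smc3 library c stood well above all others, and the Npm1 library c lay within the WT range. Fcgr3, a low-affinity IgG receptor, had counts of 1091, 933 and 1882 in Smc3, 319, 255 and 549.7 in Npm1 and 643, 682 and 832 in WT and a log2 difference of 1.42 ± 0.28 (adjusted p = 3.13e-05). Tyrobp, the signalling adaptor of many myeloid receptors, and Fcer1g, the signalling chain of Fc receptors, were higher by 1.35 ± 0.28 (adjusted p = 6.10e-05) and 1.16 ± 0.27 (adjusted p = 0.000514). Ccr2, the receptor that draws monocytes out of marrow, had counts of 2337, 2296 and 4400 in Smc3, 1051, 724 and 1934 in Npm1 and 1465, 1541 and 1558 in WT, with Smc3 above Npm1 in every library. Limma-voom called 1 of 16 of these genes without Npm1 library a, and it called 14 of 16 against Smc3 library c alone.

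MHC class II genes, which present antigen on dendritic cells and B cells, were called higher in 6 of 8 tested and lower in 0, with a median of 0.93. H2-Ab1, a beta chain, had counts of 607, 544 and 590.3 in Smc3, 314, 243 and 358 in Npm1 and 442.5, 369 and 476 in WT and a log2 difference of 0.83 ± 0.21 (adjusted p = 0.00139). H2-Oa, which restrains peptide loading, had counts of 203, 203 and 215 in Smc3, 55.8, 73.9 and 91.2 in Npm1 and 110.1, 117 and 100 in WT and a log2 difference of 1.25 ± 0.27 (adjusted p = 0.000128). Every Smc3 library exceeded every WT and Npm1 library in both. H2-DMb1, which helps load peptides, and H2-Ob, the partner of H2-Oa, were higher by 0.99 ± 0.28 and 0.92 ± 0.29. None of the 7 genes with counts was called by limma-voom without Npm1 library a, where all 7 had been called with it, and their median log2 difference was 1.31 without it and 1.25 with it.

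Of 11 tested T and NK cell genes 4 were called higher and 0 lower, beside 27.1% of all tested genes called in either direction. The summed count of the 9 with counts was 5075, 3924 and 5209 in Smc3, 1932, 1545 and 2477 in Npm1 and 2596, 2581 and 2797 in WT. Nkg7, a granule protein of cytotoxic cells that myeloid cells also express, had counts of 1142, 1345 and 2374 in Smc3, 560.3, 381 and 794.5 in Npm1 and 1012, 964.5 and 1034 in WT and a log2 difference of 1.21 ± 0.27 (adjusted p = 0.000239). Klrk1, an activating receptor, was higher by 0.82 ± 0.33 (adjusted p = 0.047) and was not called by limma-voom, at adjusted p = 0.0509, and the 2 other called genes were Il18rap and Il18r1, which are also in the cytokine receptor list. Without Npm1 library a limma-voom called 0 of the 9, where it had called 3. The Smc3 libraries lay above WT and Npm1 for the sum, while the T cell genes Cd3d, Cd3e, Cd3g and Cd8b1 lay under the limit of 50.

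Of 10 tested B cell genes 3 were called higher, Il7r by 1.15 ± 0.27, Cd79b by 0.83 ± 0.28 and Cd37 by 0.43 ± 0.16. This share was near the 27.1% of all tested genes. The 8 B cell genes with counts summed to 3120, 3261 and 4138 in Smc3, 2476, 2054 and 2940 in Npm1 and 2690, 2548 and 3636 in WT, and WT library c lay within the Smc3 range. By limma-voom 3 of these 8 were called higher, and 0 without Npm1 library a or without Npm1 library b. None of 7 tested plasma cell genes was called by the z test, and limma-voom called 0 of 6 in the direct comparison and 2 of 6 higher against Smc3 library c. The plasma cell sum was 3469, 3854 and 6300 in Smc3, 3677, 2785 and 4277 in Npm1 and 3945, 3893 and 4738 in WT, with overlap between all groups. The part of such cells in the differences of other genes was not tested.

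Surface and identity genes of stem and early progenitor cells included 7 called higher and 0 lower among 20 tested, with a median of 0.38. Over all tested genes 27.1% were called in either direction. Cd34, the sialomucin of progenitors, had counts of 4554, 5440 and 7224 in Smc3, 1786, 1220 and 2844 in Npm1 and 3379, 3405 and 3942 in WT. The groups did not overlap, with Smc3 above and Npm1 below WT, the means were 5740 ± 1360 in Smc3 against 1950 ± 824 in Npm1 (SD, n = 3 libraries), and the log2 difference was 1.30 ± 0.25 (adjusted p = 1.35e-05). Fli1 and Erg, ETS factors of stem cells and megakaryocytes, were higher by 1.08 ± 0.22 (adjusted p = 4.08e-05) and 0.87 ± 0.22 (adjusted p = 0.00122). Fli1 had counts of 1247, 1539 and 1697 in Smc3, 613, 491 and 830.1 in Npm1 and 954, 983.5 and 1147 in WT, again with Smc3 above and Npm1 below WT. Kit, given above, was not called, at 0.15 ± 0.17 (adjusted p = 0.54). Of the 19 genes with counts limma-voom called 7 higher and 1 lower, and 1 and 0 without Npm1 library a.

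The transcription factors that choose between myeloid lineages were split. Of 28 tested, 14 were called higher in Smc3 and 5 lower, of which 3 were lower after centring. Limma-voom called 13 of 26 higher and 6 lower, and 2 and 1 without Npm1 library a. Cebpa, Spi1, Gata2 and the granulocyte factor Gfi1 were on the higher side, as were Ikzf2, an Ikaros family member, at 1.00 ± 0.21 (adjusted p = 0.000101) and Cbfb, the partner of Runx factors, at 0.83 ± 0.18 (adjusted p = 0.000223). Ikzf2 had counts of 1358, 1274 and 1346 in Smc3, 615, 418 and 814.5 in Npm1 and 908, 833.5 and 758.5 in WT. On the lower side stood the erythroid factors Gata1, Klf1 and Tal1 at -0.54 ± 0.20, -0.58 ± 0.17 and -0.66 ± 0.17, beside Ikzf1 at -0.35 ± 0.11 and Hopx. Klf1, the master regulator of the red cell programme, had counts of 4487, 5293 and 3184 in Smc3, 6904, 6639 and 6747 in Npm1 and 6885, 6553 and 6344 in WT, with the Smc3 libraries below all WT and Npm1 libraries and WT overlapping Npm1. Gfi1, Gata1, Klf1, Tal1 and Ikzf1 were chosen after their values were seen.

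Red cell genes were lower in Smc3. Of 39 tested, 16 were called lower and 1 higher, with a median log2 difference of -0.48, and 9 were called lower after centring. The 28 with counts summed to 108500, 88440 and 71540 in Smc3, 122700, 128000 and 135500 in Npm1 and 128000, 128300 and 133000 in WT. The Smc3 libraries lay below all WT and Npm1 libraries, Smc3 library c was the lowest, and WT and Npm1 overlapped. Rhag, the Rh-associated membrane glycoprotein, had counts of 6945, 4575 and 3133 in Smc3, 9594, 10340 and 8777 in Npm1 and 5634, 5803 and 5018 in WT and a log2 difference of -0.91 ± 0.22 (adjusted p = 0.000667). Epb4.1, a protein of the membrane skeleton, had counts of 7293, 5955 and 5305 in Smc3, 9765, 11510 and 8995 in Npm1 and 7866, 7830 and 8039 in WT and a log2 difference of -0.66 ± 0.16 (adjusted p = 0.000937).

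Car2, a carbonic anhydrase of red cells, and Cpox, an enzyme of haem synthesis, were lower, at -0.89 ± 0.17 (adjusted p = 2.84e-05) and -0.87 ± 0.20 (adjusted p = 0.000446), without counts per library. The gene called higher was Nfe2, a factor of platelet and red cell genes, at 0.50 ± 0.12, named because it stood alone. Without Npm1 library a limma-voom called 0 of the 28 genes with counts, and it called 17 lower against Smc3 library c alone. Their median log2 difference was -0.51 with and without Npm1 library a. Red cell lysis and lineage depletion came before RNA extraction, and whether their yield differed between libraries was not tested.

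**Figure D3:**
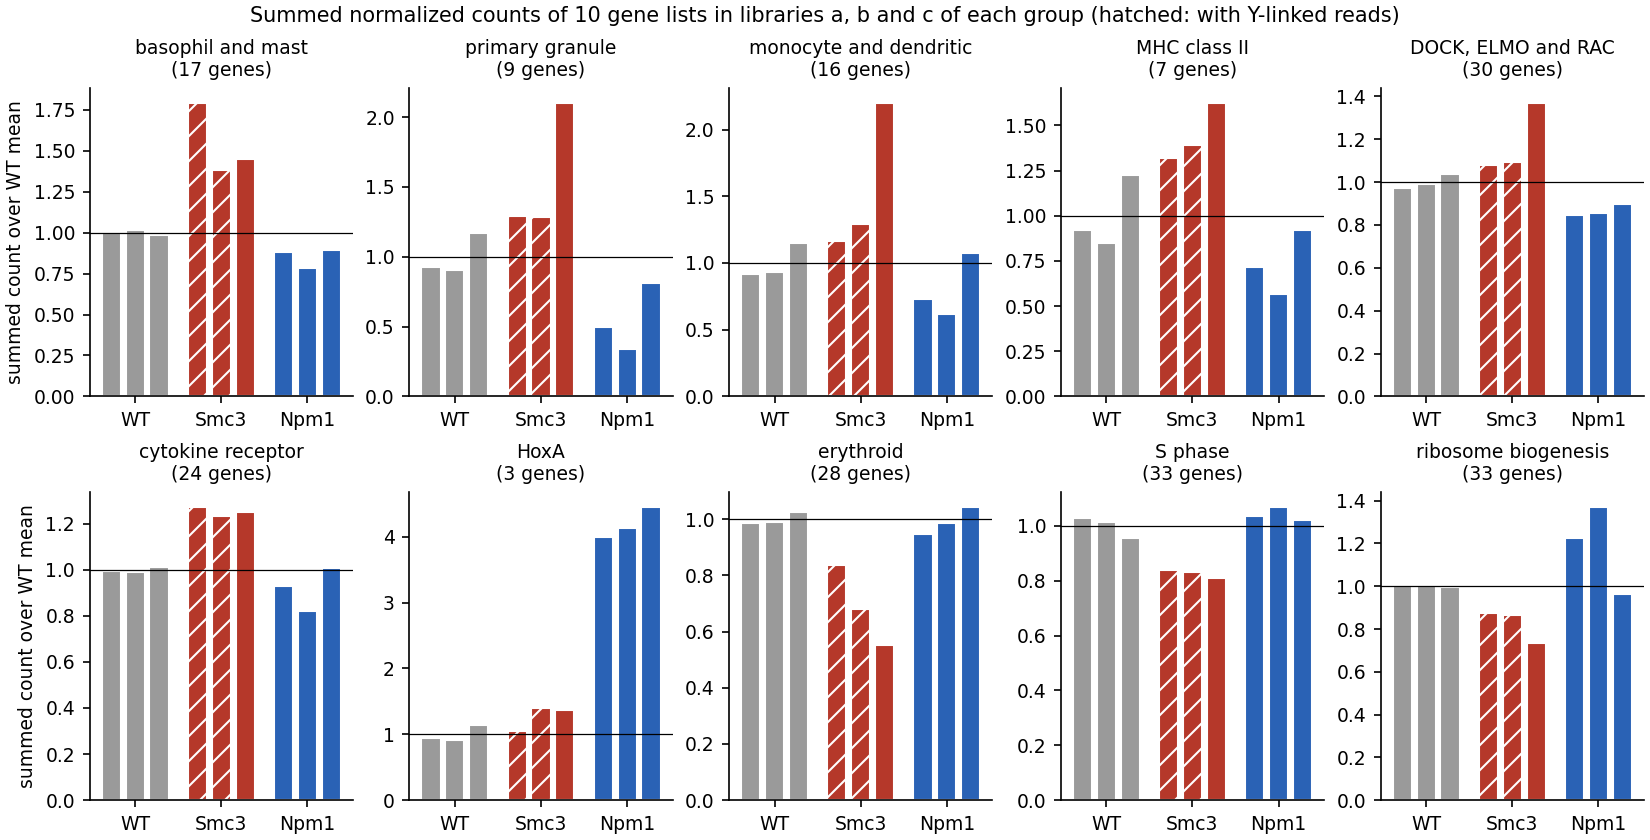
Bars give the summed normalized count of a gene list in each library divided by the mean of the 3 WT libraries (line at 1), with Y-linked reads marked by hatching. Basophil and mast cell, granule, monocyte and MHC class II genes are above 1 in the Smc3 libraries, HoxA genes are above 1 most clearly in Npm1, and erythroid, S phase and ribosome biogenesis genes are below 1 in Smc3.

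Platelet lineage genes were divided, with 6 of 20 tested megakaryocyte genes called higher in Smc3 and 1 lower. This share was not far above the 27.1% of all tested genes. Itga2b, the alpha chain of the platelet fibrinogen receptor, had counts of 4483, 3787 and 2504 in Smc3, 1441, 1215 and 2181 in Npm1 and 2218, 2112 and 2195 in WT and a log2 difference of 1.00 ± 0.24 (adjusted p = 0.000574), and against Smc3 library c alone it was not called, at 0.72 with adjusted p = 0.114. Cd9, a tetraspanin of platelets, was higher by 0.76 ± 0.20 (adjusted p = 0.00213). The gene called lower was Zfpm1, the partner of Gata1, at -0.52 ± 0.19 (chosen after its values were seen), and it was not called after centring. Leaving out Npm1 library a took the limma-voom calls from 6 higher and 2 lower to 1 and 0. The list's sum overlapped between the groups, at 24020, 24910 and 18480 in Smc3, 20330, 19730 and 24300 in Npm1 and 23450, 22160 and 23570 in WT.

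Ribosome biogenesis, the nucleolar pathway in which Npm1 acts, was shifted towards Npm1. Of 38 tested genes, Npm1 among them, 28 were called lower in Smc3 and 0 higher, with a median log2 difference of -0.52 and a highest value of -0.13, and 17 were called lower after centring. The 33 with counts summed to 124200, 122700 and 103800 in Smc3, 173600, 194300 and 136700 in Npm1 and 142100, 141600 and 141200 in WT. The Smc3 libraries lay below all WT libraries, Npm1 libraries a and b lay above WT, and Npm1 library c lay just below WT.

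Heatr1, a factor for transcription and processing of pre-rRNA, had counts of 5432, 5411 and 4581 in Smc3, 9131, 10680 and 6581 in Npm1 and 5983, 6256 and 6648 in WT and a log2 difference of -0.71 ± 0.18 (adjusted p = 0.00166). Noc3l, which takes part in making the large subunit, had counts of 1612, 1731 and 1438 in Smc3, 2690, 2958 and 2150 in Npm1 and 1937, 1984 and 1947 in WT and a log2 difference of -0.66 ± 0.16 (adjusted p = 0.00085). Smc3 and Npm1 libraries did not overlap for these, though Npm1 library c lay within the WT range for Heatr1. Ncl, or nucleolin, and the RNA helicase Ddx21 were lower, at -0.70 ± 0.18 (adjusted p = 0.00152) and -0.77 ± 0.18 (adjusted p = 0.00039), without counts per library. Limma-voom called 23 of 33 genes lower with all libraries, 0 without Npm1 library a, 4 without Npm1 library b and 11 against Smc3 library c alone. The median log2 difference was -0.55 with all libraries and -0.52 without Npm1 library a. Of the proteins of the ribosome itself, 1 of 49 cytosolic ribosomal protein genes was called lower and 0 higher, Rplp1 at -0.34 ± 0.14, which was not called after centring, and the list's median was -0.12.

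Genes of DNA replication were lower in Smc3 as well, with 16 of 36 S phase genes called lower, 0 higher and a median of -0.29, and 9 called lower after centring. Ccne1, the cyclin that brings cells into S phase, had counts of 2861, 3193 and 2546 in Smc3, 5066, 5030 and 4644 in Npm1 and 4002, 3917 and 3753 in WT. All Smc3 libraries lay below WT and all Npm1 libraries lay above WT, with a log2 difference of -0.75 ± 0.13 (adjusted p = 4.19e-06). Mcm4, a subunit of the replicative helicase, had counts of 9239, 8734 and 9197 in Smc3, 13130, 14100 and 12120 in Npm1 and 10990, 11600 and 10770 in WT and a log2 difference of -0.52 ± 0.12 (adjusted p = 0.00032). Orc1 and Cdc6, which load that helicase, were lower, at -0.69 ± 0.16 (adjusted p = 0.000386) and -0.49 ± 0.12 (adjusted p = 0.000948). Limma-voom called 20 of 33 lower with all libraries, 1 without Npm1 library a, 7 without Npm1 library b and 8 against Smc3 library c alone, and the median was -0.29 with all libraries and -0.28 without Npm1 library a.

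Of 30 G2 and M phase genes 2 were called lower and 0 higher, namely the kinase Plk1 at -0.33 ± 0.13 and the centromeric histone Cenpa at -0.35 ± 0.13, and neither was called after centring. Whether the S phase and mitotic lists differ was not tested. Among 11 D cyclin and CDK inhibitor genes Ccnd1 was higher in Smc3 by 1.01 ± 0.27 (adjusted p = 0.00202), and Rb1 was lower, at -0.45 ± 0.17 (adjusted p = 0.0304), though not after centring. Ccnd1 had counts of 595, 615 and 801 in Smc3, 299.6, 134 and 392 in Npm1 and 446, 421.5 and 504 in WT, with no overlap between Smc3 and Npm1. Cdkn1a, the CDK inhibitor induced by p53, had a log2 difference of -0.24 ± 0.29 (adjusted p = 0.549) and was not called.

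The cohesin complex, of which Smc3 is a subunit, had 4 of 18 tested genes called lower in Smc3 and 0 higher, with a median of -0.18, a share below the 27.1% of all tested genes. They were Wapal, which releases cohesin from chromatin, at -0.63 ± 0.16 (adjusted p = 0.00114), its partner Pds5a at -0.44 ± 0.13 (adjusted p = 0.00771), the acetyltransferase Esco2, which acts on Smc3, at -0.65 ± 0.22 (adjusted p = 0.0191) and the separase inhibitor Pttg1 at -0.69 ± 0.18 (adjusted p = 0.0024). Wapal had counts of 9467, 7524 and 7702 in Smc3, 13490, 14010 and 11660 in Npm1 and 9934, 10590 and 8991 in WT. Pttg1 had counts of 391.5, 404 and 364 in Smc3, 587, 689 and 683 in Npm1 and 419, 371 and 359 in WT. For both genes the Npm1 libraries lay above all Smc3 and WT libraries. Limma-voom called 6 of 18 lower and 1 without Npm1 library a, and against Smc3 library c alone Esco2 and Pds5a were not called, at adjusted p = 0.217 and 0.0985.

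Of 26 tested genes that p53 induces 5 were called lower in Smc3 and 2 higher, a share near the 27.1% of all tested genes. Gadd45a, a stress protein, had counts of 1084, 957 and 1164 in Smc3, 1554, 1520 and 1513 in Npm1 and 1679, 1612 and 1547 in WT and a log2 difference of -0.49 ± 0.14 (adjusted p = 0.00395), with Smc3 below WT and Npm1. Bbc3, the pro-apoptotic protein Puma, had counts of 274.5, 228 and 265 in Smc3, 403.5, 352 and 401 in Npm1 and 498, 472 and 495.5 in WT and a log2 difference of -0.54 ± 0.18 (adjusted p = 0.0178), with Smc3 below Npm1 and Npm1 below WT, and it was not called after centring. Xpc, a DNA damage sensor, had counts of 1615, 1655 and 1906 in Smc3, 924, 777 and 1086 in Npm1 and 1212, 1255 and 1197 in WT and was higher by 0.84 ± 0.17 (adjusted p = 2.88e-05). Smc3 lay above and Npm1 below WT for Xpc. Bcl2, which protects from apoptosis, was higher by 0.84 ± 0.24 (adjusted p = 0.00432) and Bcl2l2 by 0.46 ± 0.18 (adjusted p = 0.0394), which with Bbc3 made 3 called genes among 11 of the Bcl2 family, again near the 27.1% of all tested genes.

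Of 31 tested interferon response genes 7 were called higher in Smc3 and 0 lower, with a median of 0.22. The share called was below the 27.1% of all tested genes. Limma-voom called 8 higher and 1 lower at a median of 0.50, and without Npm1 library a it called 2 and 0 at a median of 0.17. Ifitm1, a membrane protein that blocks virus entry and marks early progenitors, had counts of 588, 638 and 500.4 in Smc3, 150.5, 105 and 194 in Npm1 and 666, 707 and 761 in WT. The Npm1 libraries lay far below all Smc3 and WT libraries, Smc3 lay below WT, and the log2 difference was 1.64 ± 0.22 (adjusted p = 1.35e-10). Ifitm2, of the same family, had counts of 2737, 3072 and 2928 in Smc3, 1379, 1503 and 1524 in Npm1 and 2639, 2426 and 2527 in WT, with all Npm1 libraries below and all Smc3 libraries above WT, and a log2 difference of 0.95 ± 0.13 (adjusted p = 2.66e-10).

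Trim30a, an interferon-induced ubiquitin ligase, and Ddx58, which senses viral RNA, were higher by 1.07 ± 0.25 (adjusted p = 0.000467) and 0.89 ± 0.21 (adjusted p = 0.000578). Trim30a had counts of 1007, 1130 and 1717 in Smc3, 409, 447 and 739 in Npm1 and 927, 1111 and 1037 in WT, with WT overlapping Smc3. The promoters of Ifitm2 and Trim30a are shown since both genes were called and hold the interferon-stimulated element searched here on either strand (GAAA and again GAAA, with 2 bases of any kind between), in capitals. They lie at chr7:140955962-140956211 on the minus strand and chr7:104465194-104465443 on the minus strand, from RefSeq on GRCm38.p6.
Ifitm2: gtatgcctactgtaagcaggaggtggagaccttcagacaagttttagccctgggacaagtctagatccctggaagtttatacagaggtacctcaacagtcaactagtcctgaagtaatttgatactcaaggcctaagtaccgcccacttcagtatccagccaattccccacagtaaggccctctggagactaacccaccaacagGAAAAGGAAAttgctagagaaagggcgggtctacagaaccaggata
Trim30a: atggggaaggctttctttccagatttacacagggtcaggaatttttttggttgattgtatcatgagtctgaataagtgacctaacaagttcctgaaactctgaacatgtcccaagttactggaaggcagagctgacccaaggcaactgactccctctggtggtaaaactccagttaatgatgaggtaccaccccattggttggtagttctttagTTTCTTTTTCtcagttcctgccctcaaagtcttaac
The element stood in 8 of 24 promoters of the interferon list (33.3%), in 2.59% of members and in 3.04% of all promoters, and it began 46 and 36 bases before the start in these genes. The summed count of all 31 interferon genes was 29610, 29520 and 31590 in Smc3, 22880, 27260 and 30000 in Npm1 and 33760, 34020 and 31440 in WT, with Npm1 library c within the Smc3 range.

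MHC class I and its peptide supply had 4 of 13 genes called higher and 0 lower, a share near the 27.1% of all tested genes. These were the immunoproteasome subunits Psmb9 at 0.61 ± 0.19 (adjusted p = 0.0122) and Psmb8 at 0.61 ± 0.21 (adjusted p = 0.019), the heavy chain H2-K1 at 0.47 ± 0.17 (adjusted p = 0.0278) and the light chain B2m at 0.47 ± 0.19 (adjusted p = 0.048). Psmb8 had counts of 2714, 3041 and 4067 in Smc3, 1841, 1664 and 2628 in Npm1 and 2808, 2613 and 2964 in WT, with all Smc3 libraries above all Npm1 libraries and Npm1 library c within the WT range. By limma-voom 4 of 10 with counts were called higher, and 0 without Npm1 library a.

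TGF-beta signalling and Id genes had 7 of 14 called higher and 0 lower, with a median of 0.33, and limma-voom called 7 of 14 with all libraries and 0 without Npm1 library a. Tgfbr2, the ligand-binding receptor, had counts of 956, 873 and 708 in Smc3, 353, 287 and 505 in Npm1 and 555, 545 and 630.2 in WT and a log2 difference of 1.02 ± 0.23 (adjusted p = 0.00022), with Smc3 above and Npm1 below WT. Tgfbr1, its signalling partner, Ski, which restrains Smad proteins, and Smurf1, a ubiquitin ligase of the pathway, were higher by 0.62 ± 0.19, 0.57 ± 0.15 and 0.70 ± 0.21. Of 21 NF-kappaB genes 6 were called higher and 1 lower, a share not far above the 27.1% of all tested genes. Nfkbie, an inhibitor of the pathway, was at 0.76 ± 0.24 (adjusted p = 0.0123) and the adhesion gene Icam1 at 0.89 ± 0.28 (adjusted p = 0.0124). The coactivator Bcl3 was at 0.96 ± 0.33 (adjusted p = 0.0186) and the chemokine Cxcl2 at 0.77 ± 0.27 (adjusted p = 0.0227). Cxcl2 had no counts per library, so neither the sign nor the size of its difference could be set against counts, as was done for Egr3 below. In the direct comparison of libraries 3 of 15 NF-kappaB genes were called higher, and 0 without Npm1 library a or without Npm1 library b. The lower call was lost after centring. Their summed count ran the other way, at 18800, 19760 and 18650 in Smc3, 21700, 21900 and 21320 in Npm1 and 23280, 22340 and 22220 in WT, with the Smc3 libraries below all Npm1 and WT libraries.

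Among 23 AP-1 and early response genes, which respond within minutes to handling as well as to signals, 1 was called higher and 1 lower. Zfp36l1, which destabilizes mRNAs, had counts of 1235, 1370 and 1593 in Smc3, 2395, 1861 and 2544 in Npm1 and 1965, 1942 and 1676 in WT and a log2 difference of -0.65 ± 0.18 (adjusted p = 0.00358). Egr3, an early growth response factor, was called higher in Smc3 at 0.70 ± 0.27 (adjusted p = 0.0403), but its counts were 13.3, 3.44 and 103 in Smc3, 59.4, 44.5 and 86.8 in Npm1 and 141, 156 and 167 in WT, so that Smc3 libraries a and b lay below all Npm1 libraries. Its unmoderated comparison by limma-voom had the opposite sign, and it was the only 1 of 2762 called genes with counts for which this was so. Called genes without counts could not be compared in this way. The deposited fold change of Egr3 in Smc3 against WT was -0.26 ± 0.17, where its mean counts were 40.1 in Smc3 and 155 in WT. No gene of 12 in the ERK feedback list was called by the z test, and limma-voom called 0 of 9 in the direct comparison and 2 of 9 higher against Smc3 library c. Nuclear respiratory chain genes had 2 of 34 called lower, Ndufs1 and Atp5b, subunits of complex I and of ATP synthase, at -0.55 ± 0.17 and -0.33 ± 0.13, the latter not after centring.

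**Figure D4:**
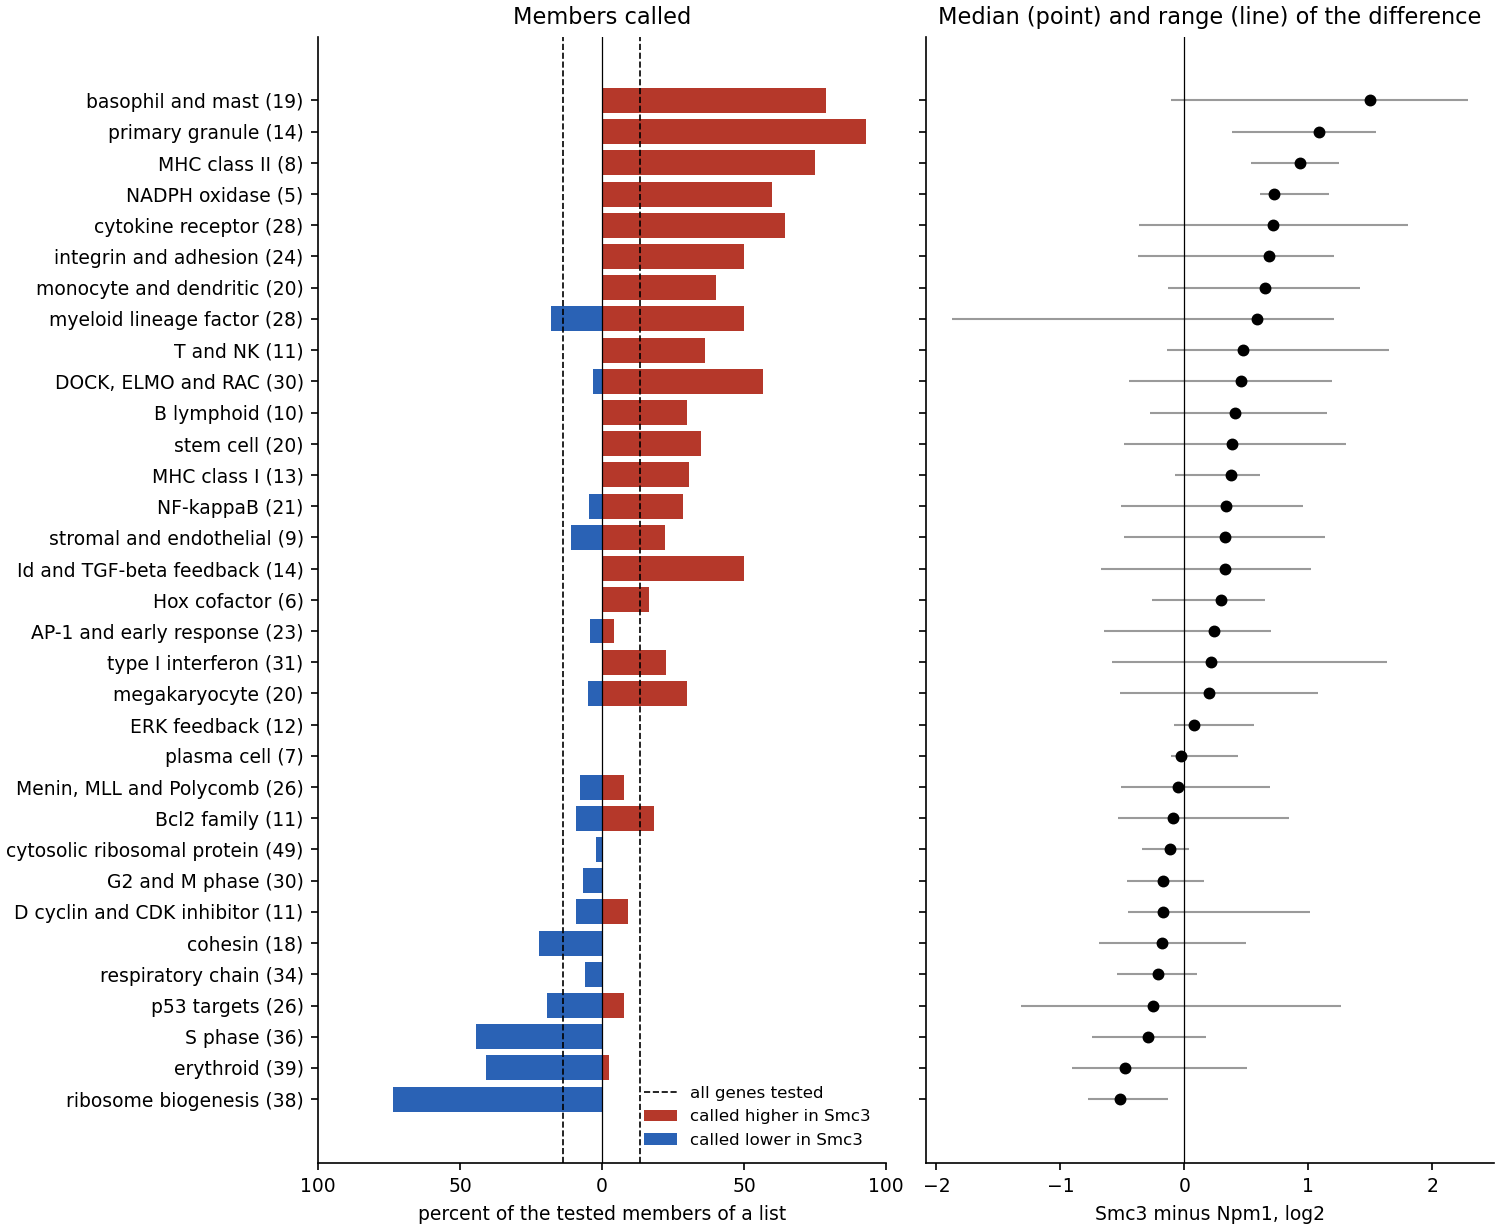
For gene lists with at least 5 tested members (number in brackets), bars give the percent of tested members called higher (red, to the right) or lower (blue, to the left) in Smc3, with dashed lines at the 13.4% and 13.8% of all tested genes, and points and lines give the median and range of the log2 difference. Primary granule and basophil and mast cell genes have the highest shares called higher, and ribosome biogenesis genes have the highest share called lower.

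Some of the most separated genes belonged to no list. Tinagl1, a secreted matrix protein, had counts of 116, 201 and 97.8 in Smc3, 17, 22.8 and 28.9 in Npm1 and 232, 196 and 249.9 in WT, and Ak4, a mitochondrial adenylate kinase, had counts of 239, 247 and 359 in Smc3, 59.4, 48.9 and 82.3 in Npm1 and 159.7, 185 and 189 in WT. The Npm1 libraries lay far below WT in both, Smc3 overlapped WT for Tinagl1 and lay above it for Ak4, and the log2 differences were 1.92 ± 0.30 (adjusted p = 5.79e-08) and 1.72 ± 0.27 (adjusted p = 8.98e-08). Lag3, an inhibitory receptor of lymphocytes and plasmacytoid dendritic cells, had counts of 336, 268.5 and 207 in Smc3, 39.6, 43.5 and 62.3 in Npm1 and 89.6, 93.1 and 135 in WT. Cyp11a1, which begins steroid synthesis from cholesterol, had counts of 946, 592 and 439.7 in Smc3, 122, 64.1 and 182.5 in Npm1 and 220.2, 269.9 and 224 in WT.

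Both stood above WT in every Smc3 library and below it in every Npm1 library, with log2 differences of 1.87 ± 0.30 (adjusted p = 2.09e-07) and 1.80 ± 0.30 (adjusted p = 9.85e-07). Cyp4f18, a hydroxylase of leukotrienes, had counts of 1038, 578 and 596 in Smc3, 116, 94.5 and 174 in Npm1 and 238.5, 223 and 402 in WT. Lama5, a laminin chain, had counts of 372.5, 254 and 115 in Smc3, 36.7, 36.9 and 42.3 in Npm1 and 93.9, 106 and 128 in WT, with Smc3 library c within the WT range and Smc3 library a far above it. Their log2 differences were 1.86 ± 0.30 (adjusted p = 3.21e-07) and 1.82 ± 0.32 (adjusted p = 2.22e-06).

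Calls were spread over the genome. The share called lower was 8.67% on chromosome 7 and 8.80% on chromosome 17, the lowest among the autosomes, and 17.7% on chromosomes 12 and 16, the highest. On the X chromosome 34 of 337 tested genes (10.1%) were called higher and 40 (11.9%) lower, below the shares over all genes.

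**Figure D5:**
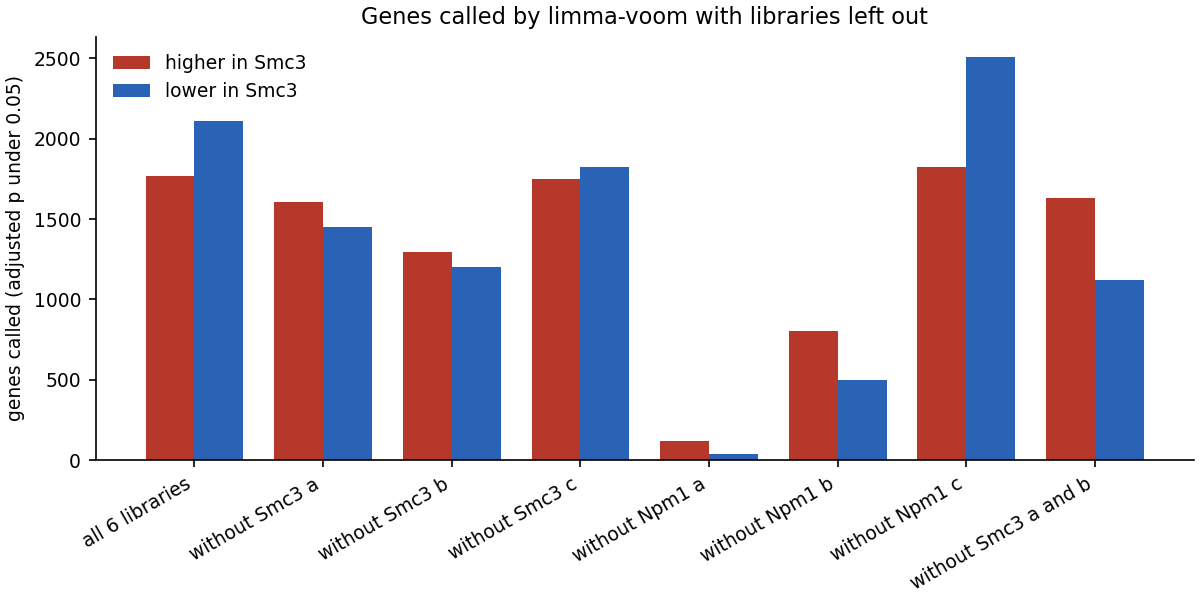
Bars give the number of genes called higher (red) and lower (blue) in Smc3 by limma-voom with all 6 libraries, with each library left out in turn and without both Smc3 libraries that hold Y-linked reads. Without Npm1 library a the calls are 120 higher and 40 lower, against 1770 and 2111 with all libraries.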

How the data were processed

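The authors aligned reads with STAR to mouse build mm9 and compared groups with DESeq2, per the submitters' processing notes. The sources used here give neither tool versions nor the read counter. Each of 3 deposited tables holds 33018 transcripts with a mean of normalized counts (a signal scaled by library size factors), per the file headers. Log2 fold changes and standard errors, the Wald score and p-values with adjusted p-values were deposited by the authors in the same tables, and the fold changes are moderated towards 0.

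Fold changes were subtracted, tested with a normal z test (Python 3.11.15, scipy 1.17.1) and adjusted over 10696 genes. The error counts the shared WT libraries in both tables. Whole reads per library were recovered by finding counts that give the deposited means. A refit gave the deposited fold changes within 1e-05 in all 3 tables for 15854 of 15891 transcripts and in 2 tables for the other 37. Members without counts had a median mean of 9433 in the Smc3 table. Normalized counts are reads divided by median-of-ratios size factors, and direct comparisons used limma 3.58.1 (voom) in R 4.3.3. The count recovery, the z test and the direct limma-voom fit were also run on simulated counts, and the other steps were not. In the simulation 200 of 10294 genes were changed by 1 log2 unit. The z test recovered 81.5% of these, with 0% of its calls false. Its fits were given the spread between libraries that the counts were drawn with, which in the data had to be estimated. All libraries of a gene were drawn with the same spread, and far fewer genes were changed than were called in the data. The share of false calls in the data can therefore be higher. Limma-voom recovered 89%, with 9.18% of its calls false at an adjusted p under 0.05.

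The members and gene lists were chosen with earlier results of these data known. Genes named are Smc3, Npm1, Dock1, Rac2, Hoxa9, Hoxa10, Meis1 and Cdkn1a, the 15 most positive and 15 most negative called differences and up to 4 genes per list with the smallest p, without Gm, Rik and receptor segment genes in the 15s. Some genes that this rule chose are not reported here. The 53 symbols turned into dates were repaired by accession. Values after ± are standard errors for log2 fold changes and log2 differences, and the SD of 3 libraries for mean counts.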

Additional observations from a re-analysis of the deposited data

Results flagged for a closer look

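Genes that reached a mean of 50 in only 1 of the tables are outside the comparison, and those with the largest signal above the WT libraries are given here as values. There were 526 such genes. The 2 tables are scaled differently, so a mean of 50 is a stricter limit in the Npm1 table than in the Smc3 table, and how many genes stand on each side says nothing of the lesions.

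Hoxa10, the HoxA gene next to Hoxa9, had a mean of 1293 in Npm1, with counts of 31.4, 58.5 and 58.5 in Smc3, 1296, 1404 and 1179 in Npm1 and 31.3, 28.4 and 71.7 in WT, so that the Npm1 libraries stood far above the rest. Hoxa6, of the same cluster, had a mean of 117.3 in Npm1, with counts of 14.6, 25 and 31.5 in Smc3, 106, 90.2 and 156 in Npm1 and 24.8, 20.5 and 17.4 in WT. Mgat4c, a glycosyltransferase gene, had a mean of 220.1 in Npm1, with counts of 9.03, 10.3 and 6.75 in Smc3, 218, 234 and 209 in Npm1 and 8.63, 7.89 and 8.69 in WT.

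Folr1, a folate receptor, had a mean of 168 in Npm1, with counts of 11.2, 24.1 and 22.5 in Smc3, 155, 247 and 102 in Npm1 and 21.6, 11.1 and 21.7 in WT. Atp6v0a4, a proton pump subunit, had a mean of 126 in Npm1, with counts of 19.4, 42.2 and 16.9 in Smc3, 159.7, 71.7 and 147 in Npm1 and 37.8, 44.2 and 23.9 in WT. In each of these 5 genes the lowest Npm1 library exceeded the highest Smc3 and WT library.

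Siglech, a receptor of plasmacytoid dendritic cells, had a mean of 202 in Smc3, with counts of 111, 134 and 361 in Smc3, 29, 33.7 and 64.5 in Npm1 and 31.3, 30 and 91.3 in WT, and Smc3 library c was the highest. Gpr34, a lysophospholipid receptor, had a mean of 164 in Smc3, with counts of 268, 101.5 and 123 in Smc3, 30.4, 25 and 42.3 in Npm1 and 28.1, 56.8 and 45.6 in WT. Il5ra, the interleukin-5 receptor chain of eosinophils and basophils, had a mean of 95.5 in Smc3, with counts of 83.5, 74.9 and 128 in Smc3, 29, 8.69 and 46.7 in Npm1 and 23.7, 25.3 and 39.1 in WT.

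Sec16b, a secretory pathway gene, had a mean of 85.1 in Smc3, with counts of 103, 72.3 and 79.8 in Smc3, 23.3, 18.5 and 33.4 in Npm1 and 29.1, 23.7 and 28.2 in WT. AI607873 had a mean of 97.5 in Smc3, with counts of 56.8, 49 and 187 in Smc3, 9.19, 11.9 and 42.3 in Npm1 and 31.3, 37.9 and 28.2 in WT. All 3 Smc3 libraries lay above all Npm1 and WT libraries in these 5 genes. No cause was tested for any of them.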

How the results depend on the processing

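With no minimum mean, a minimum of 100, another choice of transcript, genes without a p kept in, X and Y genes left out or the moderation undone, the calls stayed between 1212 and 1431 higher and between 1162 and 1480 lower, against 1428 and 1474. Centring on the median difference gave 719 lower, and with 0.5 of the summed variance the calls were 2284 higher and 3105 lower. Leaving out 1 library at a time in limma-voom gave 120 to 1822 higher and 40 to 2509 lower, the lowest without Npm1 library a, with 804 and 496 without Npm1 library b and 2509 lower without Npm1 library c. With all 12 libraries and sex as a term limma-voom called 2466 higher and 3246 lower, and without the 2 Smc3 libraries with Y-linked reads 1628 and 1119. The last 3 kinds of setting (moderation undone, sex as a term, Y-linked libraries left out) were chosen after seeing the data. Egr3 reversed, to -1.78 in limma-voom and to between -3.03 and -1.11 with 1 library left out (-1.56, -1.11, -3.03, -1.78, -1.97 and -1.60), and the cause was not tested. With the moderation undone Egr3 stayed positive, at 1.005, so that setting does not show such a reversal. Among 130 called and fixed named genes, 9 calls were lost after centring and 10 with no minimum mean, and among 115 with counts 78 were lost without Npm1 library a and 18 without the Smc3 libraries with Y-linked reads. No paired analysis was possible because the tables compare groups and the recovered libraries carry no replicate number. Library depth limits genes near a mean of 50.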

Other observations

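Listed genes under the limit of 50 extend several of the patterns as values. In the HoxA cluster, Hoxa3 had normalized counts of 155.5, 122 and 160.2 in Npm1 and 41.3, 68.8 and 38.2 in Smc3, and Hoxa4 had 80.5, 80.4 and 75.7 in Npm1 and 21.1, 18.1 and 20.2 in Smc3. Npm1 libraries lay above Smc3 libraries for both. In the HoxB cluster the 2 tested genes, Hoxb3 and Hoxb4, were not called by the z test. Their log2 differences were -0.33 ± 0.28 (adjusted p = 0.388) and -0.02 ± 0.27 (adjusted p = 0.968). Under the limit, Hoxb5, a HoxB gene of long-term stem cells, had 61.5, 43.5 and 46.7 in Npm1, 1.72, 4.30 and 5.62 in Smc3 and 1.08, 3.16 and 8.69 in WT. Hoxb2, of the same cluster, had 82.0, 85.8 and 82.3 in Npm1, 19.8, 31.8 and 40.5 in Smc3 and 70.2, 66.3 and 69.5 in WT, so the Smc3 libraries lay below both other groups.

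Ccr3, the eotaxin receptor of eosinophils and basophils, had 55.1, 25.8 and 13.5 in Smc3 and 6.36, 2.17 and 6.68 in Npm1, and WT library c, at 19.6, lay within the Smc3 range. Dock4, a relative of Dock1, had 45.2, 61.1 and 96.7 in Smc3 and 23.3, 18.5 and 37.8 in Npm1, without overlap. Ncr1, an activating receptor of NK cells, had 95.9, 90.4 and 157 in Smc3, 39.6, 18.5 and 26.7 in Npm1 and 51.8, 50.5 and 43.5 in WT, with the Smc3 libraries above all Npm1 and WT libraries. Cd3e, a T cell receptor chain, had 16.4, 7.75 and 56.2 in Smc3 and 19.1, 5.43 and 35.6 in Npm1, which overlap.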
